A study of Drosophila melanogaster with 3 samples.

Results

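The genes described here are 9 regulators and effectors of the Drosophila responses to low oxygen and to insulin, out of 13968 protein-coding genes on the 7 major chromosome arms. They are sima, Hph, Vhl, scyl, chrb, Thor, Pdk, InR and foxo, taken by gene name from the Ensembl annotation of BDGP release 6. For each gene, every peak summit in the gene body and 10 kb on either side was read, and this span is called its territory. The 9 territories did not overlap and covered 362 kb together. Chromatin immunoprecipitation sequencing had been done with an anti-GFP antibody on whole embryos of 0 to 24 h from a strain with an insertion at tango (tgo) that makes a tgo-eGFP fusion protein. There were 3 biological replicates of this 1 group, chromatin was sonicated to 200 to 800 bp, and the labels name no low-oxygen, diet or untagged arm. Whole embryos mix all cell types and a full day of development, so a peak cannot be assigned to a cell type or a stage. Peaks that do not depend on Tango cannot be told apart from those that do, since the control that the authors used was not analysed here.

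Tango is the fly counterpart of ARNT, the shared partner of several bHLH-PAS transcription factors. In low oxygen it pairs with Sima, the fly HIF alpha subunit, and the pair binds DNA at the core sequence ACGTG or GCGTG. In normal oxygen the prolyl hydroxylase Hph marks Sima and the Vhl ubiquitin ligase subunit recognises the mark, so that Sima is degraded. Insulin acts through the receptor InR to keep the forkhead factor Foxo out of the nucleus and to raise TOR kinase activity. Scyl and chrb restrain TOR signalling, and Thor is a translation inhibitor that TOR phosphorylates.

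The windows below are the 100 bp around summits on which the results turn, and they are shown because they place strong regions beside examples of the summits that held a hypoxia or forkhead core sequence. They were read from the NCBI release 6 reference, which matches dm6, and are all given for the plus strand. Capitals mark ACGTG or GCGTG, or their reverse complements CACGT and CACGC, and the forkhead sequence GTAAACA or its reverse complement TGTTTAC. The windows of the strongest core regions at sima, scyl, InR and foxo held none of these, and their G and C content was 26%, 27%, 40% and 29%. The 4 printed windows with ACGTG or GTAAACA were all summits of replicate 2 that the other thresholded lists did not place there.
sima, intron region in all 3 lists, chr3R:30061252-30061351: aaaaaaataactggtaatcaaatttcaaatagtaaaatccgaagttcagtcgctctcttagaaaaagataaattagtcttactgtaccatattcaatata
sima, start site, replicate 2, chr3R:30058292-30058391: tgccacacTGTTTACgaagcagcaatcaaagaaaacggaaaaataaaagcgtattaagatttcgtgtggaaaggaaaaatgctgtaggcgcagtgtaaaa
Hph, intron, summit of replicate 1, chr3R:5263647-5263746: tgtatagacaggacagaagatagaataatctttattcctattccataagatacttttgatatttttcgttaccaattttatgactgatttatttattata
Hph, intron, summit of replicate 2, chr3R:5263521-5263620: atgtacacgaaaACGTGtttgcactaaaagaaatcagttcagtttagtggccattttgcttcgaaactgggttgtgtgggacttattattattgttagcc
scyl, region past its end in all 3 lists, chr3L:11261021-11261120: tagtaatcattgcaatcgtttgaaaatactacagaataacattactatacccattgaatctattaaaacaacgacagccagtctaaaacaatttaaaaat
scyl, first region of the downstream cluster, chr3L:11260366-11260465: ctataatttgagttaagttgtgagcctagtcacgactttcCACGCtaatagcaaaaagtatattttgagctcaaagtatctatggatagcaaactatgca
scyl, start site, replicate 2, chr3L:11252309-11252408: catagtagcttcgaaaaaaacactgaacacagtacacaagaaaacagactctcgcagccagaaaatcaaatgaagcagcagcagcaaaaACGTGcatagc
scyl, upstream, replicate 2, chr3L:11248449-11248548: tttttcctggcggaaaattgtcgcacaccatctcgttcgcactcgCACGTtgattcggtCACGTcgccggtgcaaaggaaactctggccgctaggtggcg
Thor, promoter of Pgant4, chr2L:3472403-3472502: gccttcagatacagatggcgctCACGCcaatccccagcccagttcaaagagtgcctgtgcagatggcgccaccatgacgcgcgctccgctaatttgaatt
Thor, upstream region, chr2L:3476008-3476107: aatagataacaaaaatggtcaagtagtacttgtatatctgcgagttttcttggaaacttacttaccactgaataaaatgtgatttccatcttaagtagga
InR, inner promoter, chr3R:21590795-21590894: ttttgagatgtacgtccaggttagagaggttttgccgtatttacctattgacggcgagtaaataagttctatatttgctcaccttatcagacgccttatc
foxo, strongest upstream region, chr3R:14053559-14053658: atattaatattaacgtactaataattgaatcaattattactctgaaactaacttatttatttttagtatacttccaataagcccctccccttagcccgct

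Summits of the thresholded lists were joined across replicates where they lay within 150 bp, and a region in at least 2 of the 3 lists is called a core region. The thresholded lists held 3605, 4759 and 3026 peaks on the major arms in replicates 1, 2 and 3, and the longer ranked lists of candidates 34654, 75861 and 33142. Together they gave 3463 core regions. The strength of a peak is given as its signal percentile, the percent of peaks in the same list with a signal no higher than its own. A ranked percentile is the same measure within a ranked list. The ranked lists are much longer, so it is not comparable with a percentile of a thresholded list. The sources used here name no read depth, and the precision of each signal is therefore unknown.

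The 9 territories held 24, 35 and 19 thresholded summits in replicates 1, 2 and 3, or 26.0 ± 8.19 (SD, n = 3). These joined into 39 regions, of which 23 were core regions, 15 of them in all 3 lists. Over the whole series 65.6% of core regions were in all 3 lists, close to the share here. Every territory held at least 1 core region, as did 54.9% of all protein-coding genes by the same rule. With the gene body and 2 kb upstream only, 5 of 9 genes had a core region (sima, Hph, chrb, InR and foxo) against 23.1% of all genes. By this rule the share was 53.1% among genes of at least 30 kb, which include sima, InR and foxo, and 37.0% among those of 5 to 30 kb, which include Hph and chrb. Without replicate 1, and likewise without replicate 2, foxo and chrb dropped out and 3 genes were left, against 18.9% and 17.9% of all genes. Within 1 kb of a start site 4 of 9 did (sima, Hph, InR and foxo) against 17.4%. No test was run over these genes, since they were chosen with earlier results of these data known.

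The density of core regions in the 9 territories was 63.5 per Mb (95% exact Poisson interval 40.3 to 95.3, counting error only), against 28.1 per Mb (27.1 to 29.0) over the merged territories of all protein-coding genes. The density of thresholded summits was 66.3, 96.7 and 52.5 per Mb in replicates 1, 2 and 3, which is 2.26, 2.50 and 2.16 times that over all territories, or 2.31 ± 0.176 times (SD, n = 3). In the ranked lists the same ratio was 1.33, 1.70 and 1.63, or 1.55 ± 0.199. The ratio was lower among all candidates than among thresholded peaks in each replicate. Since the genes were chosen with earlier results known, these densities are a description. With every territory counted on its own, the density for all genes of at least 30 kb, of 5 to 30 kb and under 5 kb was 21.5, 39.8 and 39.1 core regions per Mb, and for the members of these classes 54.0, 54.2 and 105.5 per Mb. Gene length moves with the counts, and its part was not tested. Among the 670 genes of at least 30 kb, which include sima, InR and foxo, 64.9% had a core region in the territory, against 51.7% of the 10476 genes under 5 kb, which include Vhl, scyl and Thor.

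The genes differed in their number of core regions. Foxo had 5, sima and scyl 4 each, Hph 3, Thor and InR 2 each, and Vhl, chrb and Pdk 1 each. Of all protein-coding genes, 1.63% had at least 5 and 4.02% at least 4. For the short gene scyl the share of genes under 5 kb with at least 4 was 2.35%. For the long genes sima and foxo the shares of genes of at least 30 kb with at least 4 and at least 5 were 17.2% and 12.2%. This order rests on the thresholded lists, and with all ranked peaks past the threshold InR had 5 core regions, as many as foxo.

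**Figure D1:**
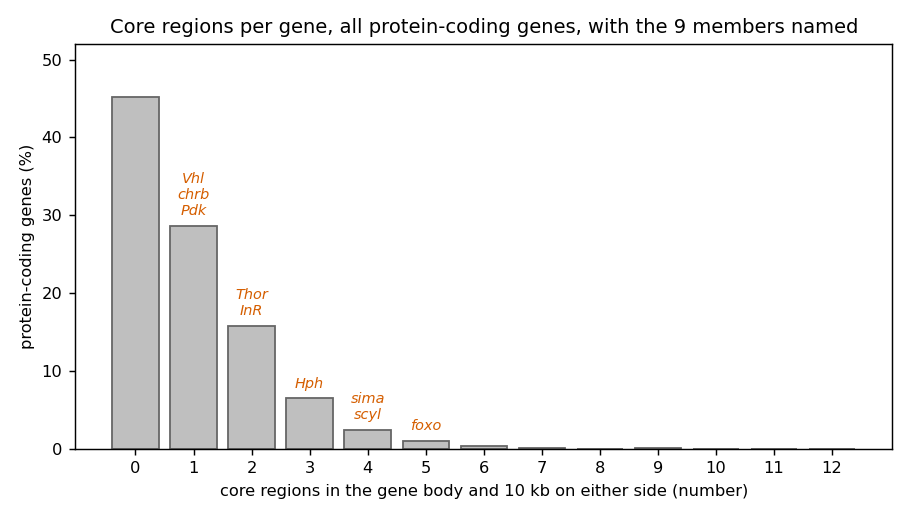
Share of the 13968 protein-coding genes (%, vertical axis) by the number of core regions in the gene body and 10 kb on either side (horizontal axis), with the 9 genes named above their bar. Foxo, sima and scyl stand in the thin right part of the distribution, where 4.02% of all genes, and 17.2% of genes of at least 30 kb such as sima and foxo, have at least 4.

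Most core regions of the territories were not at the start sites of the 9 genes. Of the 23, 8 lay in promoters (1000 bp upstream to 200 bp downstream of a start site), 7 in introns, 7 between genes and 1 in a 5′ UTR. Promoters made up 34.8% of them, against 47.9% of all core regions, and regions between genes 30.4% against 14.7%. Only 3 of the 8 promoter regions had one of the 9 genes as the nearest start site, and over all classes 13 of 23 did. Most territories also hold neighbouring genes. The same shares over the territories of all protein-coding genes were not computed, so these counts are a description only. The mean signal percentile of the 23 ranged from 4.73% to 96.1% with a median of 51.5%, against a median of 52.9% over all core regions.

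**Figure D2:**
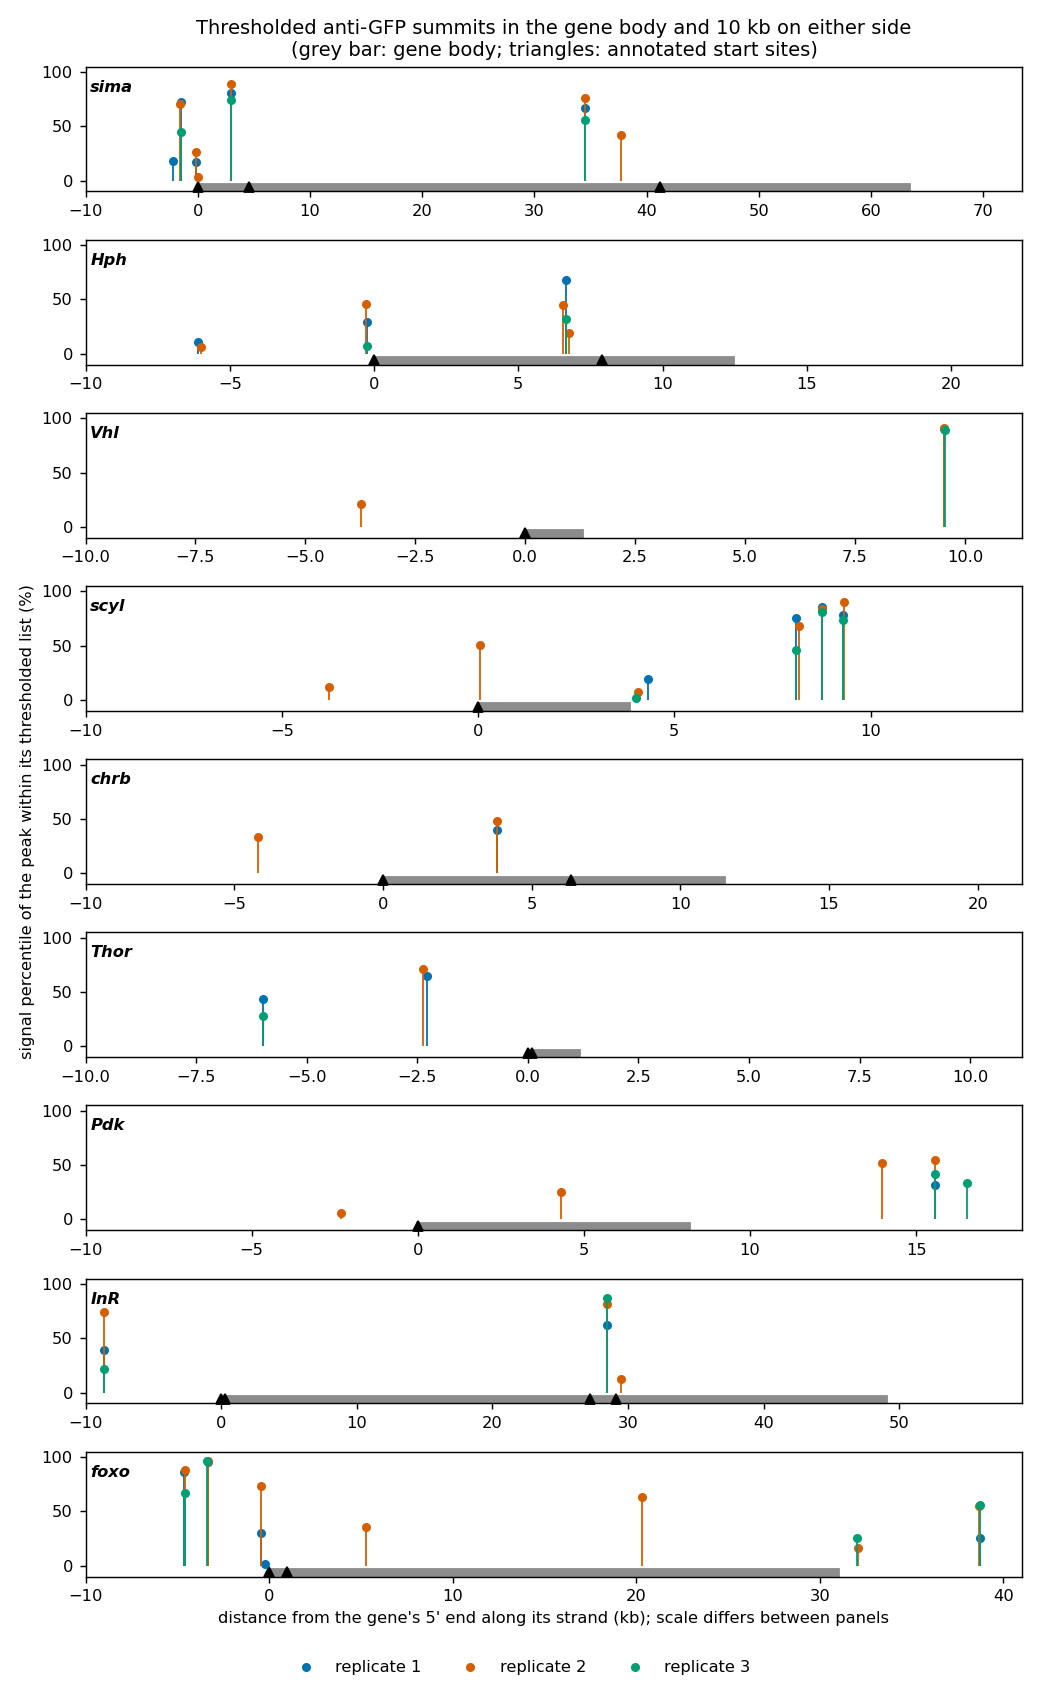
Thresholded summits in each territory, with distance from the 5′ end of the gene along its strand on the horizontal axis (kb) and signal percentile within the list on the vertical axis (%). Stems are single peaks coloured by replicate, grey bars are gene bodies and triangles are annotated start sites. The strong stems of scyl lie past its end and those of foxo before its start, while those of sima and InR lie partly inside the gene.

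At sima itself, the HIF alpha gene (chr3R:30058311-30121798, plus strand), the strongest region lay in an intron 1620 bp upstream of an inner start site. Its signal percentiles were 80.9%, 88.7% and 74.5% in replicates 1, 2 and 3, or 81.4 ± 7.14% (SD, n = 3), with the summit at 30061302. A second intronic region at 30092847 stood at 66.5%, 75.9% and 55.9%, or 66.1 ± 9.998%. The order of the replicates was the same at both, with replicate 2 highest and replicate 3 lowest. A percentile depends on the length of its list, so this order is not read as a difference between replicates. The region nearest to the first start site, at 30058139 and 172 bp upstream, was weak, at 17.1% and 26.6% in replicates 1 and 2 and with no thresholded peak in replicate 3. The fourth core region, at 30056783, stood at 72.6%, 70.4% and 44.5% and lay 76 bp upstream of CG7950 and 1528 bp upstream of sima. The remaining summits were 1 peak of replicate 1, 2169 bp upstream of sima at 18.5%, and 2 peaks of replicate 2. Of the latter, the summit 31 bp inside sima had a percentile of 2.96% and held the forkhead sequence TGTTTAC, and the one at 30096029 stood at 42.2%.

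Around Hph, the oxygen-sensing hydroxylase (chr3R:5257037-5269507, plus strand), the regions were of middle or low strength. The promoter region at 5256768 had percentiles of 29.5%, 46.0% and 6.71%, or 27.4 ± 19.7% (SD, n = 3). It lay 269 bp upstream of Hph and 87 bp upstream of Enoph, an enolase-phosphatase, so the 2 genes cannot be told apart as its neighbour. In an Hph intron, 1242 bp upstream of an inner start site and 1005 bp upstream of Tim17a2, of the Tim17 family of mitochondrial import proteins, a region had percentiles of 67.9%, 44.6% and 32.4%, or 48.3 ± 18.0%. Its summits spread over 233 bp, the widest of the 23 regions, against a median of 32 bp. Replicates 1 and 3 placed the summit at 5263697 and 5263696, and replicate 2 placed 1 on each side, at 5263571 and 5263804. The third region, at 5250936 in an intron of CtsF, a cathepsin, stood at 10.6% and 6.28% in replicates 1 and 2, and an antisense RNA gene (asRNA:CR44019) is annotated there too.

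Vhl, the ubiquitin ligase subunit that recognises hydroxylated Sima (chr2R:11279725-11281033, plus strand), had no thresholded summit in its body or at its start. The core region counted in its territory had its summit at 11289253, 8220 bp past the gene end, in the 5′ UTR of Fbl6, an F-box protein gene. This region was strong and even, at 90.5%, 91.4% and 89.0%, or 90.3 ± 1.18% (SD, n = 3). It is nearer to Fbl6 than to Vhl. The only other summit, in replicate 2 at 21.2%, lay 695 bp upstream of TpnC47D, a troponin C gene. At the Vhl start all 3 ranked lists had a candidate 361 to 364 bp inside the gene, at ranked percentiles of 59.5%, 74.6% and 53.3%, all below the threshold.

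Scyl and chrb encode homologues of mammalian REDD proteins, which restrain TOR signalling in low oxygen. Scyl (chr3L:11252307-11256172, plus strand) had a cluster of 3 regions downstream of the gene, 4244, 4899 and 5452 bp past its end, and no other protein-coding gene reaches into its territory. The first, at 11260416, had percentiles of 75.8%, 68.2% and 45.7%, or 63.2 ± 15.7% (SD, n = 3). The middle region, at 11261071, stood at 85.9%, 83.4% and 80.6%, or 83.3 ± 2.63%. The last, at 11261624, stood at 77.9%, 90.4% and 73.5%, or 80.6 ± 8.78%. All 9 peaks of this cluster passed the threshold. The range of the middle region lay above that of the first, and the range of the last overlapped both. A weak region 207 bp past the gene end stood at 7.21% and 2.25% in replicates 2 and 3, and a peak of replicate 1 at 19.6% lay 455 bp past the end. At the start site itself only replicate 2 had a thresholded summit, 52 bp inside the gene, at 50.4% and with ACGTG in its window. The candidates there reached ranked percentiles of 65.4%, 96.8% and 90.3% in replicates 1, 2 and 3, with scores of 160, 1000 and 714 against the 830 needed to pass. A further summit of replicate 2, at 12.04%, lay 3808 bp upstream in the noncoding RNA gene lncRNA:CR44717 and held CACGT at 2 places.

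Chrb (chr3L:11487550-11499055, plus strand), the paralogue of scyl, had 1 core region, in an intron at 11491387, 2484 bp upstream of its inner start site. It stood at 39.8% and 48.0% in replicates 1 and 2, or 43.9 ± 5.84% (SD, n = 2). Replicate 3 had a candidate at the same place with a ranked percentile of 87.8% and a score of 561, short of the threshold. The ranked percentiles of replicates 1 and 2 there were 93.6% and 96.7%. The other thresholded summit, in replicate 2 at 33.1%, lay 4200 bp upstream. The strong downstream cluster of scyl thus had no counterpart past the end of chrb, where no thresholded summit lay within 10 kb.

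Thor encodes the 4E-BP translation inhibitor that TOR phosphorylates and that Foxo is known to activate. Neither of its core regions (chr2L:3478434-3479612, plus strand) was at its start. The nearer one, at 3476058 and 2376 bp upstream in the noncoding RNA gene lncRNA:CR45372, had percentiles of 64.9% and 71.1% in replicates 1 and 2. Replicate 3 had a candidate there with a ranked percentile of 84.3% and a score of 84. The ranked percentiles of replicates 1 and 2 there were 96.2% and 98.1%. The other, at 3472453, stood at 43.1% and 27.5% in replicates 1 and 3 and lay 150 bp upstream of Pgant4, an enzyme that begins O-glycosylation. Replicate 2 had a candidate there with a ranked percentile of 95.7% but a score of 66, so its absence from the list came with a high signal and a poor reproducibility score. The ranked percentiles of replicates 1 and 3 there were 93.9% and 93.1%. At the Thor start, candidates reached ranked percentiles of 96.5% in replicate 2 and 85.5% in replicate 3, with scores of 229 and 66, and replicate 1 had none within 500 bp.

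Pdk, the kinase that holds back pyruvate dehydrogenase and so the entry of pyruvate into respiration (chr2R:9426439-9434638, plus strand), had 1 core region, 7367 bp past its end. This lay 439 bp upstream of a start site of ced-6, an adaptor for engulfing dead cells, and stood at 31.6%, 54.97% and 41.8%, or 42.8 ± 11.7% (SD, n = 3). It too is nearer to another gene than to Pdk. Of 4 summits in a single list, 1 was inside Pdk, in an intron in replicate 2 at 24.8%, and held GTAAACA. The others were a peak of replicate 2 at the start of prel, at 6.14%, and 2 at ced-6, in replicate 2 at 51.8% and in replicate 3 at 33.6%. At the Pdk start all 3 ranked lists had a candidate, with ranked percentiles of 84.6%, 87.6% and 65.9% and scores of 475, 251 and 183, so none passed.

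InR, the insulin receptor gene (chr3R:21570248-21619321, minus strand), had its main region at an inner promoter, 654 bp upstream of the start at 21590191. The summit at 21590845 had percentiles of 62.6%, 81.4% and 87.0%, or 77.0 ± 12.8% (SD, n = 3). Here the percentile was highest in replicate 3 and lowest in replicate 1, an order that is likewise not read as a difference between replicates. A second region, at 21627924, lay in an intron of E2f1, a cell cycle transcription factor gene, and varied widely, at 39.5%, 74.0% and 21.5%, or 45.0 ± 26.7%. A weak summit of replicate 2, at 12.2%, lay 364 bp inside the inner start.

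InR was also the only territory in which ranked peaks passed the score of 830 and yet were missing from the thresholded lists. There were 2, 5 and 2 such peaks in replicates 1, 2 and 3, out of 77, 104 and 66 on all arms. The place with such scores in all 3 replicates, around 21613071 in an intron, had ranked percentiles of 96.3%, 95.9% and 93.4% and a score of 1000 in each replicate. At the distal start of InR, the candidates 96 bp upstream in replicate 2 and 113 bp upstream in replicate 3 had ranked percentiles of 94.6% and 95.7% and scores of 1000. Replicate 1 had a candidate there with 82.2% and a score of 346. The deposited readme lists 1 more input file for the thresholded lists than for the ranked lists, and that file was not used here. With all passing ranked peaks used, the 9 territories held 26 core regions in place of 23, and all of the difference lay at InR, which then had 5 in place of 2.

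Foxo (chr3R:14056945-14087978, plus strand) had the strongest region of all 9 territories, between genes and 3336 bp upstream of its start. The summit at 14053609 had percentiles of 95.8%, 96.6% and 96.1%, or 96.1 ± 0.377% (SD, n = 3). Its lowest value was above the highest value of any other region of the 9 territories, which was 91.4%. A second upstream region, at 14052348 and 4597 bp from the start, stood at 86.2%, 88.5% and 66.6%, or 80.4 ± 12.1%. At the foxo promoter, 443 bp upstream, replicates 1 and 2 differed, with 29.9% and 73.0%, and replicate 3 had no thresholded peak. A summit of replicate 1 at 1.19% lay 250 bp upstream. Inside the gene only replicate 2 had thresholded summits, at 35.8% and 62.8%. Downstream, a region at 14088979 stood at 16.2% and 25.3% in replicates 2 and 3 and lay 538 bp upstream of Npc2b, a sterol-binding protein gene. Replicate 1 missed it narrowly, with a score of 826. The last region, at 14095656 in an intron of the neuropeptide gene CCHa1, stood at 25.4%, 55.1% and 56.0%, or 45.5 ± 17.4%.

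**Figure D3:**
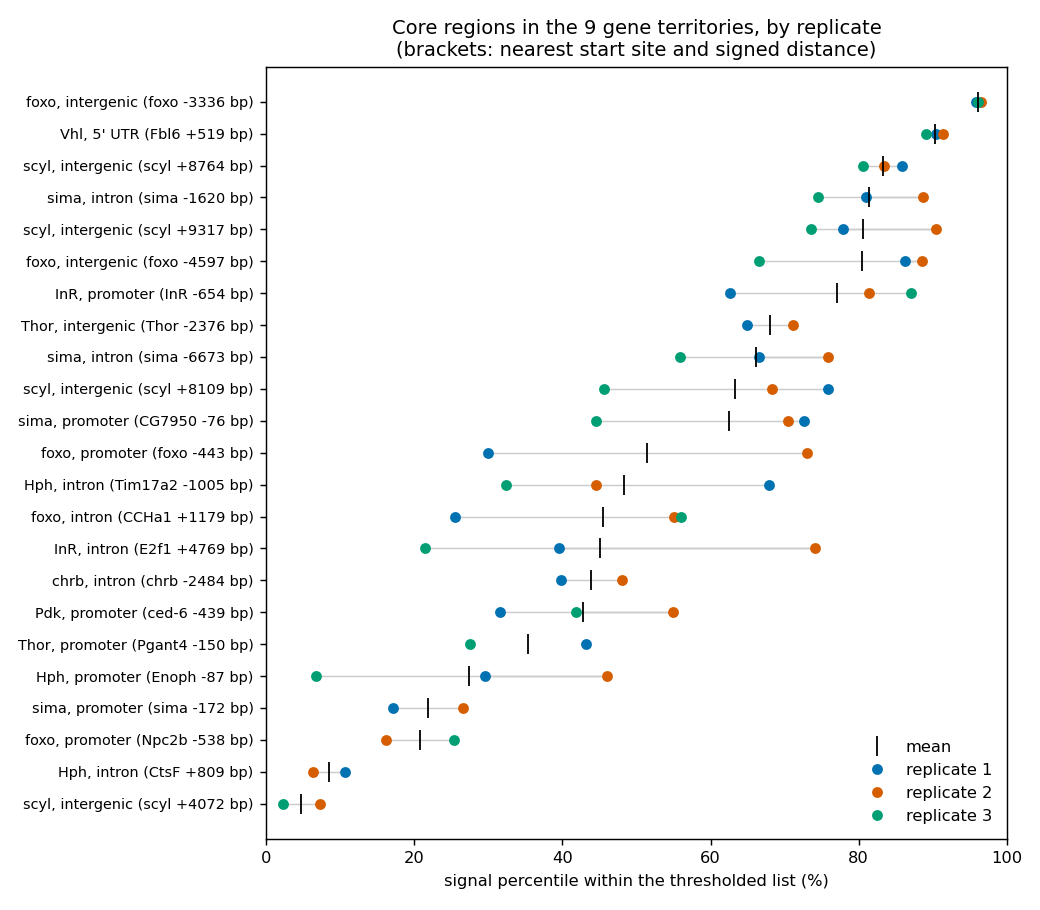
Signal percentile of the 23 core regions in each thresholded list (%, horizontal axis), ordered by their mean, with points coloured by replicate, ticks at the mean and the nearest start site in brackets. The top region, upstream of foxo, spans 95.8% to 96.6%, while the InR territory region in E2f1 spans 21.5% to 74.0%.

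The replicates contributed unequally. Of the 16 regions found in a single list, 12 came from replicate 2, 3 from replicate 1 and 1 from replicate 3. Replicate 2 also had the longest lists over the whole genome, and the part of list length in this was not tested. Replicate 3 missed 5 of the 23 core regions, replicate 1 missed 2 and replicate 2 missed 1. The same splits over all regions are not given here, so these counts are not read as a trait of the territories. In the ranked lists the territories held 128, 373 and 152 candidates, which joined into 420 regions. Of these, 65 (15.5%) were in all 3 lists, against 9.98% over the genome, and 34 of the 65 had no thresholded peak.

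Among these candidates, named by the highest mean ranked percentile in each territory, the best at sima was intronic, at 30083470, with ranked percentiles of 84.0%, 92.3% and 83.5% and scores of 464, 464 and 283. The best at chrb lay 1385 bp upstream of its first start, with 73.9%, 91.1% and 83.0%. The best at Thor lay 968 bp upstream, with 57.5%, 83.4% and 71.5%. The best at Hph lay 1584 bp past its end, inside the neighbouring gene mtd, with 62.0%, 88.9% and 81.9%, and the best at scyl in its coding exon, with 63.7%, 58.3% and 85.3%. The best at foxo lay 9629 bp upstream, with 78.5%, 88.6% and 46.4%. Over all those named by this rule, the mean ranked percentile ran from 46.8% at Vhl to 95.2% at InR. A ranked percentile depends on the length of its list, so its order between replicates is not read here. Among the candidates named by this rule, at most 3 per gene, 3 held ACGTG in their windows. It lay at 2 places in the one inside the Vhl start and at 1 place each at sima 30076191 and foxo 14091979. The share of all ranked candidates with ACGTG was not computed, so this count is a description only.

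Few core summits held a hypoxia core sequence. ACGTG on either strand lay in 0 of the 23 windows of 100 bp, which allows a share of up to 13.04%, against 5.52% of all core windows, so a difference was not detectable at this number. GCGTG on either strand lay in 2 windows, the first region of the scyl cluster and the Pgant4 promoter, against 5.40% of all. The forkhead sequence GTAAACA was in 0 of 23, against 2.48%. Over single summits, ACGTG lay at 0 of 24, 3 of 35 and 0 of 19 in replicates 1, 2 and 3, against 5.16%, 6.09% and 5.02% of the summits of each whole list. GCGTG lay at 3 of 24, 0 of 35 and 2 of 19, against 4.94%, 6.30% and 6.35%, and GTAAACA at 0, 2 and 0, against 2.19%, 2.71% and 2.61%. The 3 with ACGTG were the flanking summit in the Hph intron and the summits at and upstream of the scyl start, printed above.

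The sequence itself was present around these genes at the level of the genome. The territories held 381 ACGTG sites, or 1.05 per kb against 1.01 per kb over the genome. Of these sites, 3 lay within 150 bp of a core summit. By region, 3 of the 23 core windows of 300 bp held ACGTG, against 21.1% of all core windows, and the difference was not tested. GTAAACA was present 86 times, or 0.24 per kb against 0.20, and none of these lay within 150 bp of a core summit. The matching share over all core regions was not computed for GTAAACA. The distance from a core summit to the nearest ACGTG ran from 50 to 1150 bp with a median of 323 bp, against 370 bp over all core regions.

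Other short sequences were also counted on both strands of the same windows. GATAA, the core of GATA factor sites, lay in 7 of 23 windows against 24.3% of all core windows. CANNTG, the general E-box, lay in 5 against 32.9%, and GAGAG, bound by GAGA factor, in 4 against 7.31%. The DREF sequence TATCGA and the E-box CACGTG, which contains ACGTG and is a CANNTG, lay in 0 against 5.02% and 0.722%. The G and C content of the 23 windows was 31.8% on average, from 21% to 58%, against 31.1% over all core windows. A match describes the letters in the window and not binding.

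**Figure D4:**
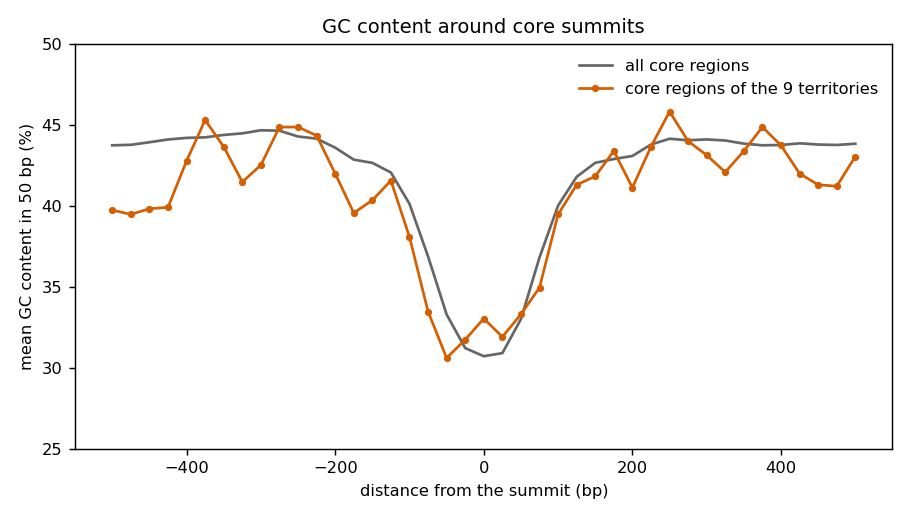
Mean G and C content in bins of 50 bp (%, vertical axis) by distance from the summit (bp, horizontal axis), for the 23 core regions of the territories and for all 3463. Both lines dip around the summit. The line of all core regions is lowest in the central bin, at 30.7%. That of the territories stands at 33.0% there and is lowest in the bin at -50 bp, at 30.6%.

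Other genes of the same pathways, from lists that like the 9 genes were chosen with earlier results known, were read in the same way. Of 20 other hypoxia genes, 14 (70%) had a core region in the territory against 54.9% of all genes, 8 (40%) in the body or 2 kb upstream against 23.1%, and 6 (30%) within 1 kb of a start against 17.4%. In the body or 2 kb upstream, the share of all genes under 5 kb was 17.4%. It was 37.0% for genes of 5 to 30 kb and 53.1% for those of at least 30 kb. The list was not matched for gene length, and the part of length was not tested. In the body or 2 kb upstream, the strongest was at Ldh, lactate dehydrogenase, 190 bp upstream, at 85.9%, 90.7% and 89.2%, or 88.6 ± 2.46% (SD, n = 3). It was followed by nej, the CBP coactivator, 731 bp upstream at 87.9 ± 4.87%, by an intronic region of Hsp83, the Hsp90 chaperone, at 87.3 ± 6.55%, and by Sirt1, a deacetylase, at 75.5 ± 6.76%. The Sirt1 region is nearest to DnaJ-H. Over whole territories the order differs, since the territory of Roc1a, a gene picked out here after its value was seen, held a region at 90.1%, nearest to Hmt4-20. The tagged gene tgo had no core region in its body or 2 kb upstream, and 1 in its territory, 24 bp upstream of Kcmf1.

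Of 39 other insulin and TOR genes, 23 (59.0%) had a core region in the territory, 15 (38.5%) in the body or 2 kb upstream and 12 (30.8%) within 1 kb of a start, against 54.9%, 23.1% and 17.4% of all genes. The share by territory was thus close to that of all genes. This list was not matched for gene length either, and the part of length in the other shares was not tested. The strongest lay 232 bp upstream of Sesn, a sestrin gene, at 98.5 ± 0.730% (SD, n = 3), and a start of CG46429 is equally near. REPTOR, a transcription factor that TOR holds inactive, had a region 150 bp upstream at 96.7 ± 1.24%. ImpL2, a secreted insulin-binding protein, had an intronic region at 93.7 ± 2.10%, nearest to CG46460, and sgg, the GSK3 kinase, a region 205 bp upstream at 91.1 ± 5.30%. In contrast, the territories of chico, the insulin receptor substrate, of Pdk1, a kinase that activates Akt, and of gig, the TSC2 homologue, held no core region. The insulin-like peptide genes Ilp1 to Ilp5 and Ilp8 had none either, while Ilp6 had 2 and Ilp7 had 1.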

How the data were processed

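Anti-GFP ChIP-seq of tgo-eGFP embryos was deposited by the authors as peak lists on dm6, called per replicate, per the deposited readme. The sources used here name no caller or aligner. Since the deposited signal has no stated unit, it served for within-list ranks alone. The deposited score is the scaled irreproducible discovery rate (IDR), and the thresholded lists start at 830, an IDR of 0.01. In the deposited ranked lists the rate stands as −log10 and was put on the same scale. The deposited summit offset placed each peak. Whole-series lists other than the conservative one were not used.

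Computed here, with Python 3.11.15, pandas 2.3.3, numpy 2.4.6 and scipy 1.17.1: summits on 7 arms were joined by single linkage at 150 bp, core regions (at least 2 of 3 lists) were placed at the summit with the highest percentile, and gene models came from Ensembl release 115. The join was checked on simulated data. Named were all 9 genes with every thresholded summit and its nearest start, the 4 strongest genes of each pathway list, and per gene the 3 strongest candidates present in all 3 ranked lists but in no thresholded list. The nearest gene of 1 single-list peak at sima is not reported here. Members and lists were chosen with earlier results of these data known. SD is between the replicate lists, which the labels call biological replicates. Of the 40 insulin and TOR genes listed, 39 were matched to a symbol. Alternatives covered list support, join rule, threshold, territory, promoter and window.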

Additional observations from a re-analysis of the deposited data

How the results depend on the processing

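Of 77 recomputed values, 60 kept within 1.5 times of the reported value. Requiring all 3 lists left 15 core regions and 4 promoter regions. By territory 7 genes then had a core region, against 44.4% of all genes. In the body or 2 kb upstream 3 genes had one, against 17.5% of all genes. Keeping in each list only peaks stronger than its median left 12 core regions, 2 genes by the body rule, 9 other hypoxia genes and 13 summits per list on average, while the share of all genes fell to 38.7% by territory and 14.4% by the body rule. The conservative list, which the authors made over the whole series, had 36 peaks in the territories. With this list the share of all genes with a peak in the territory also rose, to 63.9%. Counting only the body and 2 kb upstream gave 9 core regions, and counting start sites within 1 kb gave 4 genes against 17.4% of all genes. ACGTG lay in 2 core windows of 200 bp and 3 of 300 bp, where 12.5% and 21.1% of all core windows held it. Leaving out each replicate in turn gave 16 to 20 core regions, 7 to 9 genes in the territory, 3 to 5 genes by the body rule, 5 to 6 promoter regions, 0 to 1 core windows with ACGTG (the 1 being the Hph intron without replicate 1), 10 to 13 other hypoxia genes, 21 to 23 insulin and TOR genes, 21.5 to 29.5 summits per list, and 45.2% to 51.7% of all genes with a core region. The settings differ in the number of lists, peaks or bases that they use, some with fewer and some with more. The cause of these shifts was not tested. No paired analysis was possible because the series holds 1 group. With 23 core regions, shares under about 13.04% could not be told from 0, and no read depth was named.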
